A study of Homo sapiens with 6 samples.

Results

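The 10 genes of cystine import and glutathione turnover were chosen by gene name from the 20532 genes of the deposited count table: SLC7A11, SLC3A2, GCLC, GCLM, GSS, GSR, CHAC1, CTH, CBS and ABCC1. All 10 were found as 1 row each, and all 10 passed the filter on low counts. The libraries came from ACHN, a human renal carcinoma line that the labels assign to clear cell renal cell carcinoma, carrying lentiviral hairpins. Cells with a hairpin that lowers DNAJC2 gave 3 libraries (shDNAJC2 1, 2 and 3) and cells with a negative control hairpin gave 3 (shCtrl 1, 2 and 3). No other treatment was given in the labels. The series was set up to ask about metabolism and ferroptosis, an iron-dependent death by lipid peroxidation. Nothing stated how many hairpin sequences or transductions there were, or whether a line was 1 clone, so p-values measure only the spread between these libraries, which may be technical.

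Cells take up cystine, the oxidised form of cysteine, through system xc-, a heterodimer of the transporter SLC7A11 and the heavy chain SLC3A2, in exchange for glutamate. Cysteine can also be made from homocysteine by CBS and CTH, and glutamate-cysteine ligase (GCLC and GCLM) and glutathione synthetase (GSS) build glutathione from it. GSR recycles oxidised glutathione, CHAC1 degrades glutathione inside the cell, and ABCC1 exports glutathione and its conjugates. The transcription factor NRF2 is known to drive GCLC, GCLM, GSR and SLC7A11, and ATF4, the effector of the integrated stress response, is known to drive CHAC1, SLC7A11, SLC3A2 and CTH.

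Total counts ranged from 17491462 to 24308609 in the shDNAJC2 libraries and from 22687843 to 25760291 in the shCtrl libraries. Levels are CPM, each gene's counts scaled to a common library size with edgeR's TMM factors. In such bulk libraries, fewer cells of a kind and less RNA per cell cannot be told apart. DNAJC2 itself (ENSG00000105821) was at 51.2, 50.4 and 38.5 CPM in shDNAJC2 1, 2 and 3, against 76.7, 69.8 and 86.5 CPM in shCtrl 1, 2 and 3, without overlap. Its log2 fold change was −0.74 (95% interval −1.09 to −0.38, adjusted p 0.429 by edgeR) over 6 libraries, not passing, and −0.65 (adjusted p 0.00799) without shCtrl 3. Its reads could include those of PMPCB and PSMC2, which overlap it on the opposite strand, since the strand setting of the counting was not given in the sources used here. Across the transcriptome shCtrl 3 stood apart from the other controls: 2196 of 13988 genes (15.7%) differed more than 2-fold between shCtrl 3 and shCtrl 1. The number was 94 between shCtrl 2 and shCtrl 1. Set against shCtrl 3, shDNAJC2 1, 2 and 3 differed that far in 241, 144 and 669 genes, and set against shCtrl 1 in 2205, 2080 and 881. Within the knockdown shDNAJC2 3 differed from shDNAJC2 1 in 621, and it was nearer to shCtrl 1 than shDNAJC2 1 and 2 were. Thus shCtrl 3 lay nearer to the knockdown libraries over genes, while its DNAJC2 level was the highest of all 6. Whether it was handled differently or exchanged with another library was not tested, and both the folds over 6 libraries and those without it rest on this. The fold changes of the members are given with and without shCtrl 3, a library singled out after its values were seen. Of the renal markers, PAX8 was at 2.82 to 4.22 CPM in the shDNAJC2 libraries and 2.98 to 4.64 CPM in the shCtrl libraries, KRT8 and KRT18 were above 30 CPM in every library, EPCAM was near 1 CPM, PAX2 was below 0.05 CPM, and CDH16 had no read in any. The cadherin CDH6 ran opposite to most members, at 26.0, 22.8 and 42.8 CPM in shDNAJC2 1, 2 and 3, against 123, 127 and 17.7 CPM in shCtrl 1, 2 and 3 (log2 fold change −1.54, adjusted p 0.429 by edgeR, and −2.02, adjusted p 0.000502, without shCtrl 3). Of 11 markers of immune, endothelial, fibroblast and pericyte cells, CD3E and CDH5 had no read in any library. The filter was passed by 7, none of them called over 6 libraries, where 0% of all genes were called. The endothelial gene PECAM1 was at 1.46, 1.85 and 3.86 CPM in the shDNAJC2 libraries, against 1.11, 0.687 and 1.67 CPM in the shCtrl libraries. It was the 1 of 7 (14.3%) called higher without shCtrl 3 (log2 fold change 1.46, adjusted p 0.0364 by edgeR), beside 17.8% of all genes. CD14 and VWF had log2 fold changes of 0.48 and 1.04 in that fit, neither passing (adjusted p 0.239 and 0.135 by edgeR). The summed level of the 11 was 186 to 232 CPM in the shDNAJC2 libraries and 169 to 227 CPM in the shCtrl libraries, most of it from PDGFRA, a fibroblast marker. The part of these markers in the members' levels was not tested.

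Starts from RefSeq's promoter table were used for 6 of the 10 members. Stretches of 250 bases upstream of a listed start (GRCh38.p14) are shown for 5 of them, because these genes differ in how far they ranged between libraries and in the motifs they hold. Capitals mark matches to the motifs searched on both strands, TGATGNAA, the C/EBP-ATF element that ATF4 is known to bind, and TGACNNNGC, the core of the antioxidant response element that NRF2 is known to bind.
CHAC1, chr15:40953221-40953470, plus strand: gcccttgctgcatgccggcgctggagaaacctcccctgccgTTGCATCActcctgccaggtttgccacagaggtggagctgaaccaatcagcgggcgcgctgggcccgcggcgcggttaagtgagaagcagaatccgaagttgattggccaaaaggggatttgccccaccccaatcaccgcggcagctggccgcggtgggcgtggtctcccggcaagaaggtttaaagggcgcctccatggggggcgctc
SLC3A2, chr11:62881449-62881698, plus strand: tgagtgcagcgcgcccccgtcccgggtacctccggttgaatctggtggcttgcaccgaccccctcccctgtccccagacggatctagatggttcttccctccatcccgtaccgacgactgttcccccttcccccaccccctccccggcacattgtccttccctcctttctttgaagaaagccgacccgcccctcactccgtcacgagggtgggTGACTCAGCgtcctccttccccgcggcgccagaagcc
GCLM, chr1:93909431-93909680, minus strand: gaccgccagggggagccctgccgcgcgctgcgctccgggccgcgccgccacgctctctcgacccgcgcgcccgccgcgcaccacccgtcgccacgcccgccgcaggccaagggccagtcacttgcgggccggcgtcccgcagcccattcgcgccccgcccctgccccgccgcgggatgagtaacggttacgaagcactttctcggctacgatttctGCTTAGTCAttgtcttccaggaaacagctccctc
GCLC, chr6:53545102-53545351, minus strand: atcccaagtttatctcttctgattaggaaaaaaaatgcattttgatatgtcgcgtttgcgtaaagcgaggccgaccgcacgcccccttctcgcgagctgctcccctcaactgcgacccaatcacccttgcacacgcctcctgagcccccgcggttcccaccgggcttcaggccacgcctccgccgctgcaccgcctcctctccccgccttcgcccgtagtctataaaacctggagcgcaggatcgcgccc
CTH, chr1:70411018-70411267, plus strand: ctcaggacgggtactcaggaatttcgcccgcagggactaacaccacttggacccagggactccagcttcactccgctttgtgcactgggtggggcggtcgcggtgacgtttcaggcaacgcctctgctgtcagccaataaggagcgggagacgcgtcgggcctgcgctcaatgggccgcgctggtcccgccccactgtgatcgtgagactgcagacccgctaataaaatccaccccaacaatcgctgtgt

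CHAC1 held a C/EBP-ATF match 209 to 202 bases before its start, a motif found in 3.14% of the 35116 windows of the same length in the table. GCLM held a match to the antioxidant core 34 to 26 bases before its start and SLC3A2 held one 37 to 29 bases before, at the first of its 3 listed starts. That core stood in 10.9% of all windows. CBS also held one, 83 to 75 bases before the first of its 3 listed starts, and the windows of GCLC and CTH held neither motif. The 2 motifs did not overlap in any of these windows. A match is a description of letters in this window and not a measured binding site.

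Over all 6 libraries none of the 10 members passed the test, and 9 of the 10 had a positive log2 fold change (shDNAJC2 over shCtrl). A positive sign held for 47.7% of all genes tested. edgeR's quasi-likelihood test called 0 members higher and 0 lower (smallest adjusted p 0.429), where 0% of 13988 genes were called. At an unadjusted p under 0.05 it had 0 members against 11.3% of all genes. DESeq2 called 0 of the 9 members to which it gave an adjusted p, CTH having none, where 0.353% of the 9903 genes with one were called, and 2 had an unadjusted p under 0.05 (GCLC and ABCC1, against 13.5% of the genes with a p from it). limma-voom called 0 members and 0% of genes, and 4 members (SLC7A11, GCLC, GCLM and CTH, all higher) had an unadjusted p under 0.05, against 10.5% of all genes in either direction and 5.02% higher. The median log2 fold change of the members was 0.77, beside −0.02 for all genes tested.

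Without shCtrl 3, edgeR called 8 members higher and 0 lower, where 17.8% of 14201 genes were called higher and 17% lower, and the members' median log2 fold change was 2.07, beside −0.01 for all genes tested. Of the 8, 6 had risen at least 2-fold, as had 4.44% of all genes: SLC7A11, SLC3A2, GCLM, CHAC1, CTH and CBS. All 6 were also more than 2-fold higher in shCtrl 3 than in both shCtrl 1 and shCtrl 2, which held for 6% of all genes tested. Both comparisons set the same low controls, shCtrl 1 and shCtrl 2, against libraries that lay near each other, so they were not independent. The share among genes picked by the first comparison was not computed. GCLC and GSR rose by less than 2-fold, and GSS and ABCC1 did not pass. Leaving out any of the other 5 libraries gave 0 calls.

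**Figure D1:**
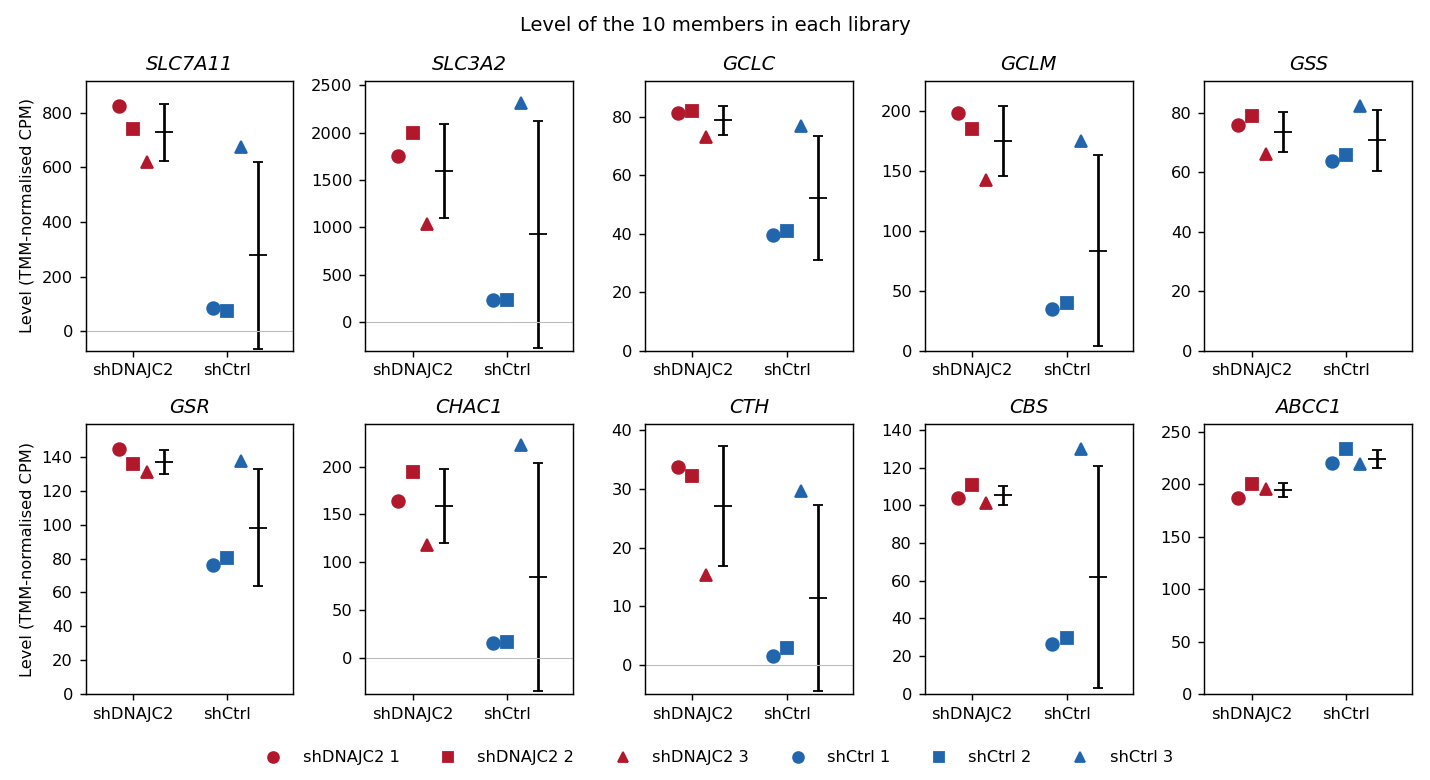
Level of each member in each library in TMM-normalised CPM, on a linear axis with its own range per gene. Red points are the shDNAJC2 libraries and blue points the shCtrl libraries, symbols give the library number, and black marks show the mean and SD of the 3 libraries. The triangle of shCtrl 3 lies with the shDNAJC2 points for 8 genes, while GSS and ABCC1 span narrow ranges.

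Both genes of the cystine importer were low in shCtrl 1 and shCtrl 2 and high in the other 4 libraries. SLC7A11 (ENSG00000151012, chromosome 4, 138164097 to 138242349 on GRCh38, minus strand) was at 826, 740 and 618 CPM in shDNAJC2 1, 2 and 3, against 84.2, 75.3 and 673 CPM in shCtrl 1, 2 and 3. The groups overlapped through shCtrl 3 alone, which lay within the range of the shDNAJC2 libraries and was 7.99-fold above shCtrl 1. The log2 fold change was 1.39 (SE 0.84, 95% interval −0.59 to 3.38, adjusted p 0.463 by edgeR) over 6 libraries and 3.19 (2.83 to 3.56, adjusted p 1.93e-05) without shCtrl 3. An antisense gene, SLC7A11-AS1, overlaps it and has no row in the counts, and reads of the pair could not be told apart.

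SLC3A2 (ENSG00000168003, chromosome 11, 62856102 to 62888875, plus strand), the heavy chain that carries SLC7A11 and several other transporters to the membrane, was at 1749, 1998 and 1039 CPM in shDNAJC2 1, 2 and 3, against 236, 235 and 2312 CPM in shCtrl 1, 2 and 3. Its highest level of all was in the control library shCtrl 3, and within the knockdown shDNAJC2 3 had 1.92-fold less than shDNAJC2 2. Its log2 fold change was 0.78 (SE 0.90, 95% interval −1.36 to 2.92, adjusted p 0.663 by edgeR) over 6 libraries and 2.77 (2.17 to 3.37, adjusted p 0.000268) without shCtrl 3.

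In read counts not corrected for GC content, the transporter and its heavy chain did not keep a fixed proportion. The ratio of SLC7A11 to SLC3A2 read counts was 0.472, 0.370 and 0.595 in shDNAJC2 1, 2 and 3, against 0.357, 0.321 and 0.291 in shCtrl 1, 2 and 3. Here shCtrl 3 lay with the other controls and the groups did not overlap, with a difference in mean log2 ratio of 0.55 and p = 0.1 in a two-sided exact permutation test, the smallest p that 3 libraries against 3 allow (adjusted p 0.4 over 4 ratios). GC content was 35.4% for SLC7A11 and 57.4% for SLC3A2, and with each library's trend on GC content removed the ratios were 0.359, 0.361 and 0.584 in the shDNAJC2 libraries, against 0.373, 0.349 and 0.352 in the shCtrl libraries. On that scale the groups overlapped and only shDNAJC2 3 stood above the rest. The log2 difference was 0.24 (exact permutation p = 0.5).

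Of the pair that makes glutamate-cysteine ligase, the first and rate-limiting enzyme of glutathione synthesis, the modifier subunit moved over a wider range than the catalytic one. GCLM (ENSG00000023909, chromosome 1, 93885205 to 93909456, minus strand), the modifier subunit, was at 198, 185 and 142 CPM in shDNAJC2 1, 2 and 3, against 35.1, 39.5 and 175 CPM in shCtrl 1, 2 and 3. The level in shCtrl 3 was 100% of the shDNAJC2 mean of 175 ± 29 CPM (SD, n = 3). The log2 fold change was 1.07 (SE 0.61, 95% interval −0.39 to 2.53, adjusted p 0.453 by edgeR) over 6 libraries and 2.23 (1.88 to 2.59, adjusted p 7.53e-05) without shCtrl 3.

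GCLC (ENSG00000001084, chromosome 6, 53497341 to 53616970, minus strand), the catalytic subunit, was at 81.4, 82.0 and 73.1 CPM in shDNAJC2 1, 2 and 3, against 39.4, 40.8 and 76.8 CPM in shCtrl 1, 2 and 3. All 3 knockdown libraries and shCtrl 3 lay within 73.1 to 82.0 CPM. A non-coding gene on the same strand, AL033397.1, and an antisense gene, AL033397.2, overlap GCLC without rows of their own. The level of GCLC could include their reads. Shorter genes without rows also overlap CTH and ABCC1. The log2 fold change of GCLC, 0.59 over 6 libraries (SE 0.26, 95% interval −0.04 to 1.22, adjusted p 0.429 by edgeR), became 0.98 (0.74 to 1.21, adjusted p 0.000413) without shCtrl 3. The ratio of GCLM to GCLC read counts was 2.43, 2.26 and 1.95 in the shDNAJC2 libraries, against 0.889, 0.969 and 2.28 in the shCtrl libraries, so that shCtrl 3 again lay among the knockdown values (log2 difference 0.81, exact permutation p = 0.3, adjusted p 0.4).

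GSS (ENSG00000100983, chromosome 20, 34928433 to 34956027, minus strand), which adds glycine in the last step of synthesis, was at 75.8, 78.9 and 66.2 CPM in shDNAJC2 1, 2 and 3, against 63.9, 65.9 and 82.5 CPM in shCtrl 1, 2 and 3. The groups overlapped. In the fit it had a log2 fold change of 0.06 (95% interval −0.27 to 0.38, adjusted p 0.837 by edgeR) over 6 libraries and 0.19 (−0.06 to 0.43, adjusted p 0.206) without shCtrl 3, and these intervals bound the difference rather than showing that there was none. GSR (ENSG00000104687, chromosome 8, 30678061 to 30727999, minus strand), the reductase that uses NADPH to restore glutathione, was at 145, 136 and 131 CPM in shDNAJC2 1, 2 and 3, against 76.0, 80.5 and 138 CPM in shCtrl 1, 2 and 3. Its log2 fold change was 0.48 (SE 0.23, adjusted p 0.43 by edgeR) over 6 libraries and 0.81 (0.59 to 1.03, adjusted p 0.000695) without shCtrl 3. GSR and GCLC had the closest profiles of any 2 members, with a root mean square difference of 0.08 between their mean-centred log2 CPM over the 6 libraries.

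CHAC1 (ENSG00000128965, chromosome 15, 40952962 to 40956519, plus strand), the enzyme that cleaves glutathione, was at 164, 194 and 118 CPM in shDNAJC2 1, 2 and 3, against 15.1, 17 and 222 CPM in shCtrl 1, 2 and 3. The highest library was shCtrl 3, at 14.7-fold the level of shCtrl 1. The log2 fold change was 0.90 (95% interval −1.48 to 3.28, adjusted p 0.652 by edgeR) over 6 libraries and 3.31 (2.82 to 3.79, adjusted p 4.79e-05) without shCtrl 3. The rise of the breakdown gene in the fit without shCtrl 3 stands beside 2.23 for GCLM and 0.98 for GCLC, and the difference between genes was not tested. The ratio of CHAC1 to GCLC read counts was 2.01, 2.37 and 1.61 in the shDNAJC2 libraries, against 0.384, 0.416 and 2.90 in the shCtrl libraries (log2 difference 1.35, exact permutation p = 0.4, adjusted p 0.4).

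**Figure D2:**
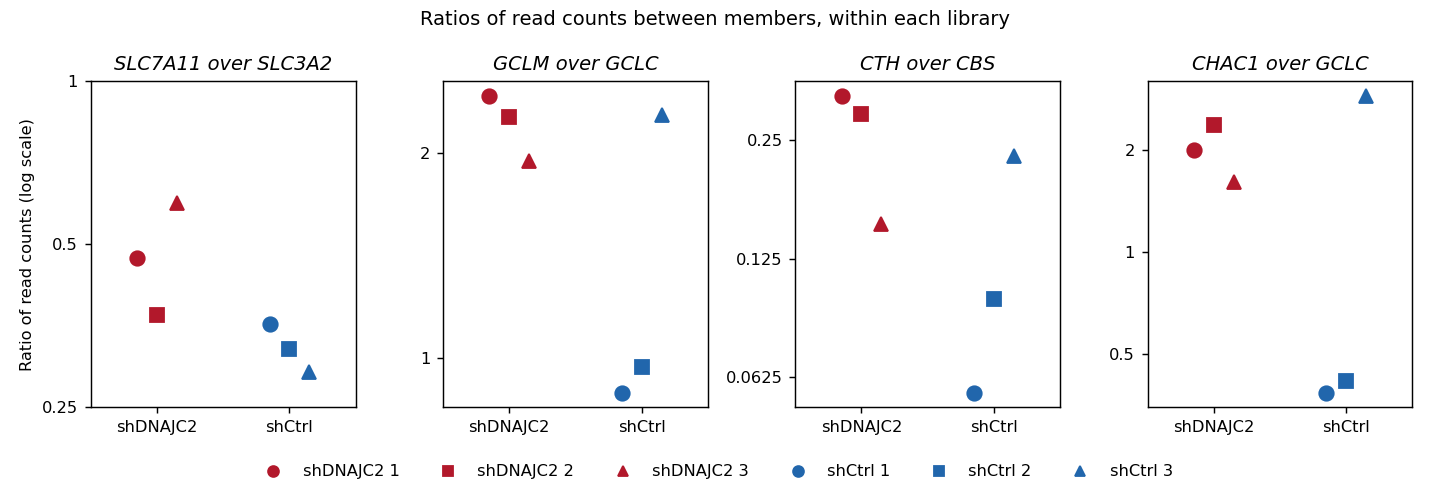
Ratio of read counts between 2 members within each library, on a log2-spaced axis, with red points for shDNAJC2 and blue points for shCtrl. In 3 of the 4 ratios the shCtrl 3 triangle lies far above the other controls, and for SLC7A11 over SLC3A2 it is the lowest point, at 0.291.

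The route from homocysteine to cysteine had the member with the widest range. CTH (ENSG00000116761, chromosome 1, 70411218 to 70439851, plus strand), cystathionine gamma-lyase, was at 33.7, 32.2 and 15.4 CPM in shDNAJC2 1, 2 and 3, against 1.52, 2.94 and 29.6 CPM in shCtrl 1, 2 and 3. These rest on 646, 538 and 388 reads in the knockdown libraries and on 37, 77 and 708 reads in the control libraries. CTH differed 2.18-fold among the knockdown libraries, with shDNAJC2 3 the lowest. Fitted over groups, its log2 fold change was 1.25 (SE 1.01, 95% interval −1.15 to 3.66, adjusted p 0.547 by edgeR) over 6 libraries and 3.59 (2.67 to 4.51, adjusted p 0.000554) without shCtrl 3.

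CBS (ENSG00000160200, chromosome 21, 43053191 to 43076943, minus strand), cystathionine beta-synthase, which acts just before CTH, was at 104, 111 and 101 CPM in shDNAJC2 1, 2 and 3, against 26.6, 29.7 and 130 CPM in shCtrl 1, 2 and 3. The shDNAJC2 libraries lay close together, and shCtrl 3 lay above all of them. The log2 fold change was 0.76 (SE 0.59, 95% interval −0.65 to 2.17, adjusted p 0.536 by edgeR) over 6 libraries and 1.91 (1.66 to 2.15, adjusted p 3.03e-05) without shCtrl 3. CBS has an annotated near-identical copy, CBSL, on the same chromosome, which has no row in the counts. Whether reads matching both were dropped or counted under CBS was not given in the sources used here, so the level of CBS is uncertain. The ratio of CTH to CBS read counts was 0.324, 0.291 and 0.153 in the shDNAJC2 libraries, against 0.0571, 0.0988 and 0.228 in the shCtrl libraries (log2 difference 1.16, exact permutation p = 0.2, adjusted p 0.4).

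ABCC1 (ENSG00000103222, chromosome 16, 15949577 to 16143074, plus strand), the exporter also known as MRP1, had the only negative log2 fold change and was the only member whose groups did not overlap. Levels were 187, 200 and 196 CPM in shDNAJC2 1, 2 and 3, against 220, 234 and 219 CPM in shCtrl 1, 2 and 3. All 3 controls, shCtrl 3 included, lay above all 3 knockdown libraries, as did the controls for 8.43% of all genes, and 15.8% of genes did not overlap in either direction. The difference was small: a log2 fold change of −0.21 (SE 0.10, 95% interval −0.44 to 0.02, adjusted p 0.43 by edgeR) over 6 libraries and −0.22 (−0.44 to −0.01, adjusted p 0.0996) without shCtrl 3. With the GC trend of each library removed it was −0.14, at a GC content of 54.9%.

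**Figure D3:**
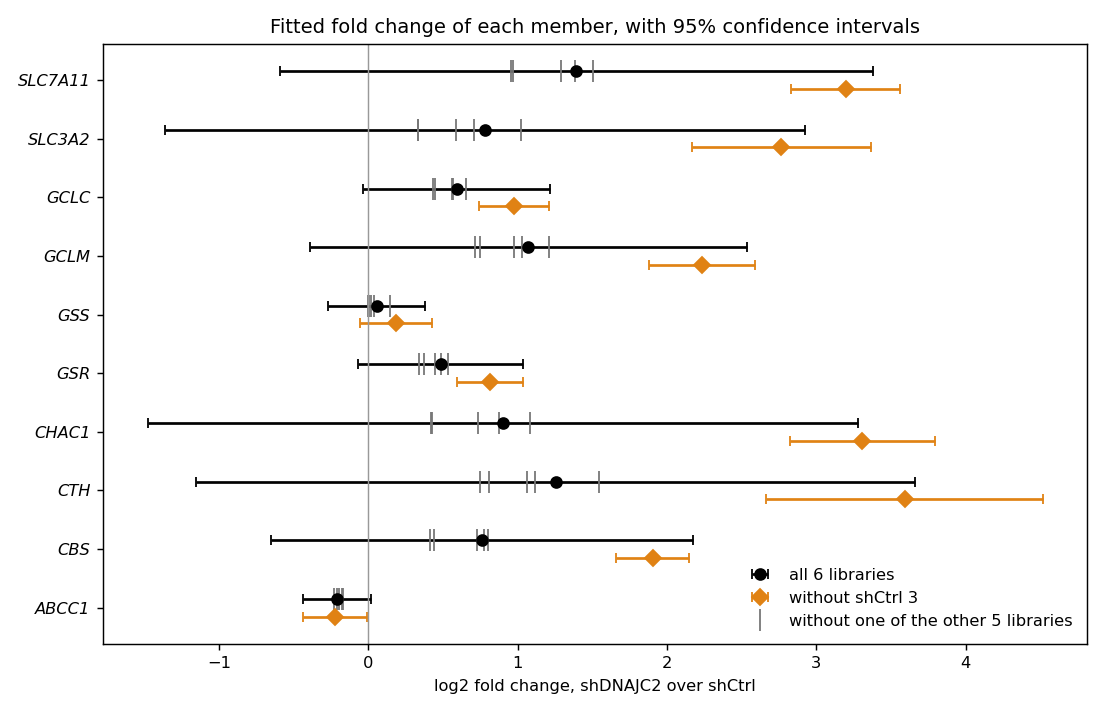
Fitted log2 fold change of each member, shDNAJC2 over shCtrl, on the horizontal axis, with 95% confidence intervals. Black circles use all 6 libraries, orange diamonds leave out shCtrl 3, and grey ticks leave out each of the other 5 libraries in turn. Without shCtrl 3 the values run from −0.22 for ABCC1 to 3.59 for CTH with narrower intervals. The grey ticks of CHAC1 run from 0.417 without shCtrl 1 to 1.085 without shDNAJC2 3, around a black circle at 0.90. Those of SLC3A2 run from 0.335 without shCtrl 2 to 1.02 without shDNAJC2 3, around 0.78.

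Per kilobase of the longest annotated coding transcript, which need not be the expressed one, SLC3A2 was the most abundant member at 718 ± 224 CPM per kilobase in the shDNAJC2 libraries (SD, n = 3). The same quantity was 106, 106 and 1040 CPM per kilobase in shCtrl 1, 2 and 3. CHAC1 (85.8 ± 20.7) and SLC7A11 (75.5 ± 10.8) followed in the knockdown and did not differ beyond their spread. GSR, CBS and GCLM came next, at 43 ± 2.2, 40.4 ± 1.9 and 36.1 ± 6.0 CPM per kilobase. CBS overlapped both of the others, while GSR was above GCLM in each knockdown library. ABCC1 (29.5 ± 1.04) and GSS (27.3 ± 2.45) overlapped, and GCLC (20.7 ± 1.30) and CTH (13.3 ± 4.96) were the lowest. In shCtrl 1 the order was different below SLC3A2: ABCC1 stood second at 33.4 CPM per kilobase, while SLC7A11 was at 8.73, CHAC1 at 8.18 and CTH at 0.742.

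The profiles over libraries shared an order within the knockdown. For 9 of the 10 members shDNAJC2 3 was the lowest knockdown library, ABCC1 being the exception, and for all of these 9 shCtrl 1 and shCtrl 2 were below all 3 knockdown libraries (for GSS narrowly, at 66.2 CPM in shDNAJC2 3 against 65.9 CPM in shCtrl 2). Over all genes tested, shDNAJC2 3 was the lowest knockdown library in 39.4%, shCtrl 1 and shCtrl 2 were below all 3 knockdown libraries in 32.3%, and both held in 24.1%. In shCtrl 3, 5 members were above all knockdown libraries (SLC3A2, GSS, CHAC1, CBS and ABCC1) and 5 were within their range. The share of all genes with either position was not computed, and for ABCC1 shCtrl 1 and shCtrl 2 were above the knockdown libraries too. On average, indicators of the regulators moved with these levels. The mean-centred log2 CPM of 17 ATF4 indicator genes outside the glutathione system was 0.96, 1.05 and 0.28 in shDNAJC2 1, 2 and 3, against −1.74, −1.70 and 1.16 in shCtrl 1, 2 and 3. That of 14 NRF2 indicator genes was 0.56, 0.66 and 0.27 in the shDNAJC2 libraries, against −1.19, −1.03 and 0.73 in the shCtrl libraries. Of the 17 ATF4 indicators, 16 had a positive log2 fold change over 6 libraries and ATF5 ran the other way. Its log2 fold change was −0.33 over 6 libraries (adjusted p 0.429 by edgeR) and −0.35 (adjusted p 0.0279) without shCtrl 3. The part of these indicators in the members' levels was not tested.

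**Figure D4:**
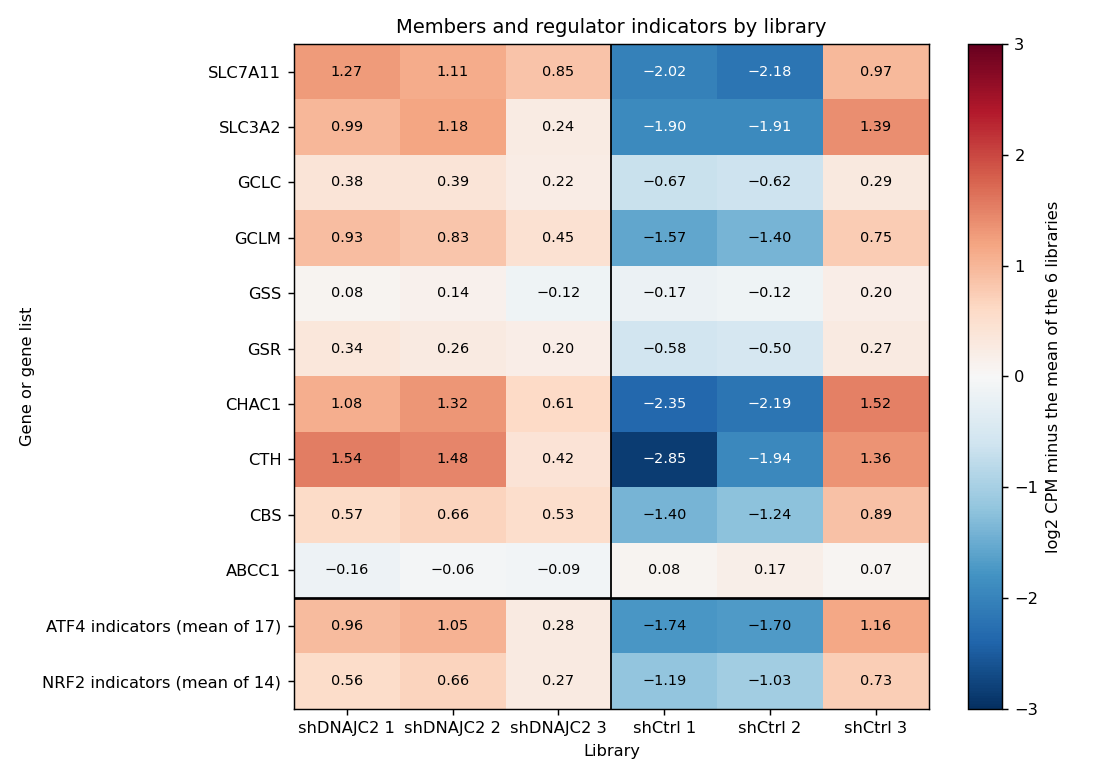
Log2 CPM of each member, and the mean over 17 ATF4 and 14 NRF2 indicator genes, minus the mean of the 6 libraries (colour and printed value), with the shDNAJC2 libraries on the left and the shCtrl libraries on the right. The columns of shCtrl 1 and shCtrl 2 are low in 9 of 10 members and in both indicator rows, and ABCC1 runs the other way with values between −0.16 and 0.17.

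The first 3 expressed genes of each indicator list were likewise high in shCtrl 3. Asparagine synthetase (ASNS), an ATF4 target, was at 645, 608 and 396 CPM in the shDNAJC2 libraries, against 29.1, 30.5 and 581 CPM in the shCtrl libraries. TRIB3 and DDIT3, also induced by ATF4, had log2 fold changes of 0.88 and 0.75 over 6 libraries, neither passing (adjusted p 0.652 and 0.535 by edgeR), and rose by 3.17 and 1.74 without shCtrl 3. The NRF2 targets NQO1, SRXN1 and TXNRD1 had log2 fold changes of 0.87, 0.87 and 1.02 over 6 libraries, none passing, and rose by 1.66, 1.89 and 2.27 without shCtrl 3.

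The genes whose profile over the 6 libraries was nearest to a member were sought among 10962 expressed genes, by the root mean square difference of mean-centred log2 CPM. Nearest to CHAC1 were TRIB3 (0.12), PCK2 (0.18) and NUPR1 (0.19). TRIB3 was at 152, 181 and 90.6 CPM in the shDNAJC2 libraries, against 14.9, 16.4 and 198 CPM in the shCtrl libraries. Nearest to GCLM were TXNRD1 (0.07), the cytosolic thioredoxin reductase, TUBE1 (0.07) and MMP1 (0.12). Nearest to SLC7A11 were ALDH1L2 (0.16), CXCL8 (0.16) and IL11 (0.21), so that its neighbours included a mitochondrial folate enzyme and 2 secreted cytokines. CXCL8 was at 2088, 1910 and 1462 CPM in the shDNAJC2 libraries, against 220, 252 and 1640 CPM in the shCtrl libraries.

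Signs were mixed in the rest of the glutathione system. Of 120 other genes in 6 lists by role, 104 passed the filter. edgeR called 0 of them over 6 libraries, and 12 (11.5%) had an unadjusted p under 0.05 beside 11.3% of all genes. Of the 104, 51 were positive and 53 negative, or 49% positive beside 47.7% of all genes tested. The groups did not overlap for 12 of the 104 (11.5%), beside 15.8% of all genes. Without shCtrl 3, 30 (28.8%) rose and 21 (20.2%) fell, beside 17.8% and 17% of all genes, and their median log2 fold change was −0.01.

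Among 20 glutathione peroxidases and transferases, 7 had a positive log2 fold change over 6 libraries (median −0.25), and without shCtrl 3, 4 rose and 7 fell. GPX1, a cytosolic peroxidase, was at 119, 135 and 121 CPM in the shDNAJC2 libraries, against 151, 174 and 156 CPM in the shCtrl libraries, without overlap. Its log2 fold change was −0.36 (95% interval −0.61 to −0.10, adjusted p 0.429 by edgeR) over 6 libraries, and it fell by 0.37 without shCtrl 3 (adjusted p 0.0278 by edgeR). GPX4, which reduces lipid peroxides, had a log2 fold change of −0.08 over 6 libraries and −0.03 without shCtrl 3, and the transferase GSTP1 had 0.08 and 0.20, neither passing in either fit. Of 12 genes of the gamma-glutamyl cycle and peptide breakdown 5 were positive (median −0.10), and without shCtrl 3, 1 rose and 4 fell. CHAC2, the constitutive relative of CHAC1, was at 12.2, 11.2 and 9.51 CPM in the shDNAJC2 libraries, against 8.98, 8.90 and 10.7 CPM in the shCtrl libraries (log2 fold change 0.20, 95% interval −0.18 to 0.59, and 0.30 without shCtrl 3, not passing in either fit). GGT1, which cleaves glutathione outside the cell, and GGCT, which acts on its gamma-glutamyl products, had values of 0.11 and 0.31, and neither passed in either fit.

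Of 22 genes of the methionine cycle and of cysteine use, 10 were positive (median −0.04), and without shCtrl 3, 6 rose and 3 fell. MAT2A, which makes S-adenosylmethionine, was at 375, 341 and 314 CPM in the shDNAJC2 libraries, against 270, 231 and 307 CPM in the shCtrl libraries, without overlap (log2 fold change 0.35, 95% interval 0.01 to 0.69, adjusted p 0.429 by edgeR), and it rose by 0.46 without shCtrl 3. AHCY, which yields homocysteine, and CDO1, which oxidises cysteine, had log2 fold changes of −0.08 and −0.07, and neither passed in either fit. Of 11 other carriers, of cystine, cysteine and glutamate but also of neutral amino acids, 8 were positive (median 0.38), and without shCtrl 3, 6 rose and 1 fell. These counts include the large neutral amino acid carriers SLC7A5, SLC43A1 and SLC43A2. Without shCtrl 3 their log2 fold changes were 4.11, 1.11 and −0.855, and SLC43A2 was the 1 that fell. The neutral amino acid carriers SLC1A4 and SLC1A5 had log2 fold changes of 0.93 and 0.64 over 6 libraries and rose by 2.75 and 2.19 without shCtrl 3. SLC3A1, the heavy chain of the renal cystine carrier, had 0.01 and −0.13.

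Of 15 carriers of glutathione and its conjugates, 6 were positive (median −0.06), and without shCtrl 3, 3 rose and 4 fell. ABCC2, a relative of ABCC1, was at 2.19, 2.21 and 2.07 CPM in the shDNAJC2 libraries, against 1.07, 1.03 and 1.97 CPM in the shCtrl libraries, without overlap and with a positive sign where that of ABCC1 was negative (log2 fold change 0.67, 95% interval −0.07 to 1.41, adjusted p 0.43 by edgeR). The gap between the groups was narrow, resting on 52 reads in shDNAJC2 3 and 47 reads in shCtrl 3. ABCC2 rose by 1.04 without shCtrl 3 (95% interval 0.50 to 1.58, adjusted p 0.0117 by edgeR). ABCC4 and SLC25A39, the mitochondrial glutathione importer, had log2 fold changes of −0.04 and −0.06 over 6 libraries and −0.18 and 0.07 without shCtrl 3, none passing. Of 23 genes of NADPH supply and glutaredoxins, 15 were positive (median 0.12), and without shCtrl 3, 10 rose and 2 fell. PGD, a pentose phosphate enzyme that yields NADPH, had a log2 fold change of 0.35 over 6 libraries, not passing, and rose by 0.70 without shCtrl 3. IDH1 had −0.11 and −0.23, not passing in either.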

How the data were processed

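RNA enriched for mRNA had been made into paired-end libraries for Illumina sequencing, per the labels. The deposited values are raw counts per gene, not normalized by the authors, as the whole numbers and unequal totals show. Reads were placed on GRCh38, according to the submitters' processing notes. No aligner, counter, annotation release or strand setting is given in the sources used here. Coordinates, lengths and GC content came from GENCODE 29 on GRCh38 (20279 of 20532 genes matched).

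The test was that of edgeR 4.0.16 under R 4.3.3 (quasi-likelihood F test, two-sided, TMM, filterByExpr, Benjamini-Hochberg over all genes tested, threshold 0.05, group as the only term). Log2 CPM used a prior count of 2, and intervals are at 95%. A count of 0 allows up to 3 reads, or 0.115 to 0.179 CPM depending on the library. Such limits cover counting error only. Ratios were tested by exact permutation over libraries. Alternatives were other size factors, 2 other filters, DESeq2 1.42.0, limma-voom (limma 3.58.1), a replicate block, GC correction and leaving out each library. The scripts were tested on simulated counts.

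The members and lists were chosen with earlier results of these data known. All members and DNAJC2 are named whatever their result, the first 3 expressed genes of each other list in written order, and the 3 genes nearest to SLC7A11, CHAC1 and GCLM. One gene that this rule names is not reported here.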

Additional observations from a re-analysis of the deposited data

How the results depend on the processing

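The count of members called, 0 over 6 libraries, stayed at 0 under other size factors, both other filters, DESeq2, limma-voom, the replicate block and GC correction. Leaving out 1 library gave 0 to 8 members, 0 to 4945 genes and 0 to 51 genes of the 6 pathway lists, and every nonzero count came without shCtrl 3. DESeq2 called 35 of 9903 genes with an adjusted p, and the cause was not tested. No member changed direction under any setting run, and 8 members gained a call, all without shCtrl 3. DNAJC2 passed with DESeq2 (adjusted p 0.0364) and without shCtrl 3 (adjusted p 0.00799 by edgeR). For the ratios, leaving out 1 library gave log2 differences of 0.38 to 0.72 for SLC7A11 over SLC3A2, 0.57 to 1.25 for GCLM over GCLC, 0.70 to 1.7 for CTH over CBS and 0.85 to 2.30 for CHAC1 over GCLC. GC correction of the ratios was chosen after seeing the data.

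Same-numbered libraries did not deviate together: the correlations across genes of their deviations from the group means were −0.38, −0.52 and −0.66, and no library correlated best with its own number. With the replicate block 0 genes, 0 members and 0 pathway genes passed, SLC7A11 had a log2 fold change of 2.27, and the paired log2 differences of the ratios were 0.55, 0.81, 1.16 and 1.35. The fitted size also depended on the tool: log2 fold changes by limma-voom, against edgeR, were 2.03 against 0.90 for CHAC1, 1.61 against 0.78 for SLC3A2, 2.31 against 1.25 for CTH and 2.16 against 1.39 for SLC7A11, with none passing. Depth was lowest for CTH, with 37 reads in shCtrl 1.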
